A study of Arabidopsis thaliana with 12 samples.

Results

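The 73 loci described here are Arabidopsis thaliana loci annotated mostly as non-coding whose RNA had its highest time-point mean at 12 or 16 h of a leaf time course. They were chosen from 306 loci that carry an Arabidopsis locus code not ending in 0, with 11 such codes left out, among 5080 loci and transcripts on the array. For each locus the probe with the highest mean in the deposited series table was taken, which holds log2 values. A locus was kept if its 6 time-point means in that table spanned at least 1, if the highest mean was at 12 or 16 h, and if the scanner marked the probe as well above background on both arrays of that time point. The time of the highest mean, the range and the level at the highest mean were thus used to choose the loci, and their courses over time are given as a description. By the rule 42 loci were highest at 12 h and 31 at 16 h.

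Long non-coding RNAs are transcripts without a long reading frame. Some are precursors of small RNAs, some are transcribed across or beside protein-coding genes, and for many no role is known. In leaves the circadian clock drives daily rhythms of a large share of the transcriptome through transcriptional repressors that follow each other over the day, first CCA1 and LHY, then the PRR proteins and TOC1.

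Each of 12 leaf RNA samples of Col-0, the reference accession, was hybridised to 1 one-colour Agilent array. Plants were 30 days old and had grown at 22 °C, 65% humidity and 145 µmol per m2 per s of light, under a photoperiod of 8 h light and 16 h dark. By the titles the time points 0, 4 and 8 h belong to light and 12, 16 and 20 h to dark, and each of the 6 has 2 replicates. The series title names continuous light, so light and dark are used only as names from the titles. Whether the replicates are different plants is not stated in the labels, and all differences between time points therefore rest on a spread between arrays that may be technical. In RNA from whole leaves, fewer cells of a type and less RNA per cell cannot be told apart.

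Between 3983 and 7832 of the 15013 probes per array were well above background, with the second dark 16 h array at the top and the next array at 6186. The log2 values of the 2 replicates correlated across probes with r of 0.901 at 16 h to 0.978 at 4 h, and the replicate SD (log2) was 0.388 at 4 h and 0.960 at 16 h. In the deposited series table the second 16 h array had a slope of 1.28 against its own scanner values, compared with 0.956 to 1.02 on the other 11 arrays. The 0 and 4 h arrays lay on 1 slide and the 8 to 20 h arrays on another, so slide and the 0 and 4 h time points cannot be told apart. None of the 8 leaf, 4 root and 4 flower marker genes looked for was on the array, and the tissue label could not be checked. Of 8 clock genes looked for, all 8 were on the array. All 8 passed the F test over time described below, against 13.9% of all loci and transcripts tested.

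All levels below are scaled levels, the log2 processed signal minus the array's 75th percentile, and a difference is between means of 2 arrays unless the series table is named. A level is compared only between arrays for the same probe, never between loci. In the gene table used here (TAIR10.1) 71 of the 73 loci were found, of which 37 are classed as long non-coding RNA, 31 as other non-coding RNA and 3 as protein-coding. The 3 protein-coding entries are AT3G18485 (ILR2), AT1G24148 and AT2G01008, so for these the table goes against the label non-coding. AT3G59778 and AT3G60952 were not in the table. The loci lie on all 5 chromosomes, 18 on chromosome 1, 17 on chromosome 2, 12 each on chromosomes 3 and 4 and 14 on chromosome 5.

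The range of the 6 time-point means in the series table ran from 1.00 to 3.10 with a median of 1.41, and 16 loci had a range of at least 2. On the scaled level the difference between the rule's highest and lowest time points ran from 0.29 to 3.04 with a median of 1.33. The range of the scaled level had a median of 1.38 over the 73 loci and 1.40 over all loci and transcripts tested. The rule set a lower limit on the range of the 73, and nothing is read from that pair of values. Probes of 61 loci were well above background on all 12 arrays, and those of the other 12 loci on fewer. On both arrays of the lowest time point 6 of these 12 were at background. For them the difference is given as a bound, which holds on the scaled level only.

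The members with the widest courses among those highest at 12 h included AT4G31398, AT1G24148, AT5G01732, AT4G13495 and AT5G44562. AT4G31398, a long non-coding RNA locus that overlaps CTF7 (a cohesin acetyltransferase gene), had levels of -3.78 and -3.78 at 0 h, -3.42 and -3.23 at 4 h, -2.16 and -1.95 at 8 h, -1.18 and -0.81 at 12 h, -1.73 and -1.37 at 16 h, and -4.03 and -4.03 at 20 h. Both 12 h arrays lay above the other 10, the 16 h arrays came next, and the 0 and 20 h arrays were lowest. The 12 h mean exceeded the 20 h mean by 3.04 ± 0.22 (SE, n = 2 arrays per time point), or 8.20-fold. Each SE given here comes from the limma fit, not from the 4 arrays compared. That fit pools the replicate spread of a locus over all time points and moderates it across all loci and transcripts tested. Where the replicates of a time point lie far apart, the SE can thus be smaller than those arrays alone would give. AT1G24148, protein-coding in the gene table, had levels of 1.95 and 2.22 at 0 h, 2.33 and 2.42 at 4 h, 2.28 and 2.34 at 8 h, 3.95 and 3.94 at 12 h, 3.33 and 3.36 at 16 h, and 1.35 and 1.31 at 20 h. Its 12 and 16 h arrays stood above all other arrays without overlap, and from 12 h to 20 h the level fell 6.11-fold, a difference of 2.61 ± 0.18.

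AT5G01732, which overlaps SCAR4 (a subunit gene of the WAVE complex that acts on actin), had levels of -3.21 and -3.23 at 0 h, -4.45 and -4.51 at 4 h, -3.05 and -3.42 at 8 h, -2.02 and -1.97 at 12 h, -3.02 and -2.53 at 16 h, and -4.06 and -4.10 at 20 h. The 4 h arrays were lowest and the 20 h arrays next to them, and the replicates of each time point except 8 and 16 h lay within a few hundredths of each other. The difference between 12 and 4 h was 2.49 ± 0.23, or 5.60-fold. AT5G44562, which overlaps VPS2.2 (an ESCRT-III subunit gene of membrane sorting), had levels of -3.30 and -3.28 at 0 h, -3.91 and -3.75 at 4 h, -3.54 and -3.42 at 8 h, -1.64 and -1.74 at 12 h, -3.47 and -3.17 at 16 h, and -3.89 and -3.42 at 20 h. Here only the 12 h arrays stood apart, and the other 10 arrays overlapped. The level at 12 h exceeded that at 16 h by 1.63 ± 0.23, or 3.10-fold.

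AT5G20225 was dim. Its levels were -7.37 and -5.88 at 0 h, -6.40 and -6.22 at 4 h, -6.54 and -6.47 at 8 h, -4.69 and -4.60 at 12 h, -6.23 and -5.67 at 16 h, and -5.12 and -5.03 at 20 h. The probe was well above background on 8 of the 12 arrays and on neither 16 h array. On the scaled level this gives a 12 h level at least 2.24-fold above that at 16 h. For this locus the log2 difference was 0.29 after normexp background correction with quantile normalization (the normexp setting). The mean of its other probes went the other way, with a difference of -0.98 between 12 and 16 h, so the probes of this locus disagree.

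Among the loci highest at 16 h, AT4G26255 had the widest range. This non-coding locus lies between GolS6 and MIOX4, genes of galactinol synthesis and of myo-inositol oxidation. Its levels were -1.07 and -0.94 at 0 h, -1.56 and -1.43 at 4 h, -1.45 and -1.75 at 8 h, -2.15 and -2.10 at 12 h, 0.68 and 1.13 at 16 h, and -0.44 and -0.13 at 20 h. It was lowest at 12 h and highest 4 h later, with both 16 h arrays above the other 10. The difference between 16 and 12 h was 3.03 ± 0.24, or 8.17-fold. AT5G49152, which overlaps GEX2 (a membrane protein gene of gametes), had levels of -3.44 and -3.23 at 0 h, -3.51 and -3.55 at 4 h, -2.66 and -2.72 at 8 h, -1.34 and -1.44 at 12 h, -1.27 and -0.96 at 16 h, and -3.46 and -3.57 at 20 h. Its 12 and 16 h arrays were both high, and these 4 lay above all other arrays. The level at 16 h exceeded that at 4 h by 2.41 ± 0.20, or 5.33-fold.

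AT2G42485, a non-coding locus between protein-coding genes, rested on 1 array for its lowest value. Its levels were 0.95 and 0.96 at 0 h, 1.18 and 1.23 at 4 h, -1.32 and 1.08 at 8 h, 2.21 and 1.75 at 12 h, 2.29 and 2.04 at 16 h, and 0.88 and 0.98 at 20 h. The 8 h arrays differed by more than all other replicate pairs of the locus, and the 12 and 16 h arrays overlapped. The difference between 16 and 8 h was 2.28 ± 0.64, or 4.87-fold.

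The other 3 loci of wide range that were highest at 16 h were dim. AT5G33439 had levels of -5.62 and -6.59 at 0 h, -5.56 and -5.62 at 4 h, -4.64 and -4.53 at 8 h, -4.51 and -7.00 at 12 h, -3.76 and -2.76 at 16 h, and -4.18 and -5.23 at 20 h. It was well above background on 9 arrays but not at 0 h. On the scaled level 16 h was at least 6.96-fold above 0 h, but the bound holds on that scale only. The log2 difference was 2.06 with the 75th percentile taken over all probes and 0.31 after the normexp setting. On its other probes the difference was 1.17, with a single probe at -0.55. AT4G01533 was at -7.95 and -6.83 at 0 h, -7.20 and -7.54 at 4 h, -6.33 and -6.97 at 8 h, -6.30 and -6.17 at 12 h, -5.24 and -3.53 at 16 h, and -7.72 and -6.94 at 20 h. It was well above background on 3 arrays, and on the scaled level 16 h was at least 4.14-fold above 0 h. The log2 difference was 0.15 after the normexp setting and 0.51 on its other probes.

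AT3G18485, annotated as ILR2, was the only one of the 73 with a gene symbol. ILR2 is known as a gene in which mutation lowers the response of seedlings to auxin conjugated with amino acids and to some metals. Its levels were -5.24 and -5.82 at 0 h, -5.96 and -5.82 at 4 h, -4.89 and -5.55 at 8 h, -5.01 and -4.65 at 12 h, -4.80 and -3.05 at 16 h, and -7.85 and -6.01 at 20 h. The 12 and 16 h arrays overlapped, and the second 16 h array stood 1.75 above the first. On the scaled level 16 h was at least 3.98-fold above 20 h. With the mean of all probes the log2 difference was 1.53, and after the normexp setting it was 0.17. On the other probes of ILR2 the difference was 0.79, with their highest mean at 12 h.

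**Figure D1:**
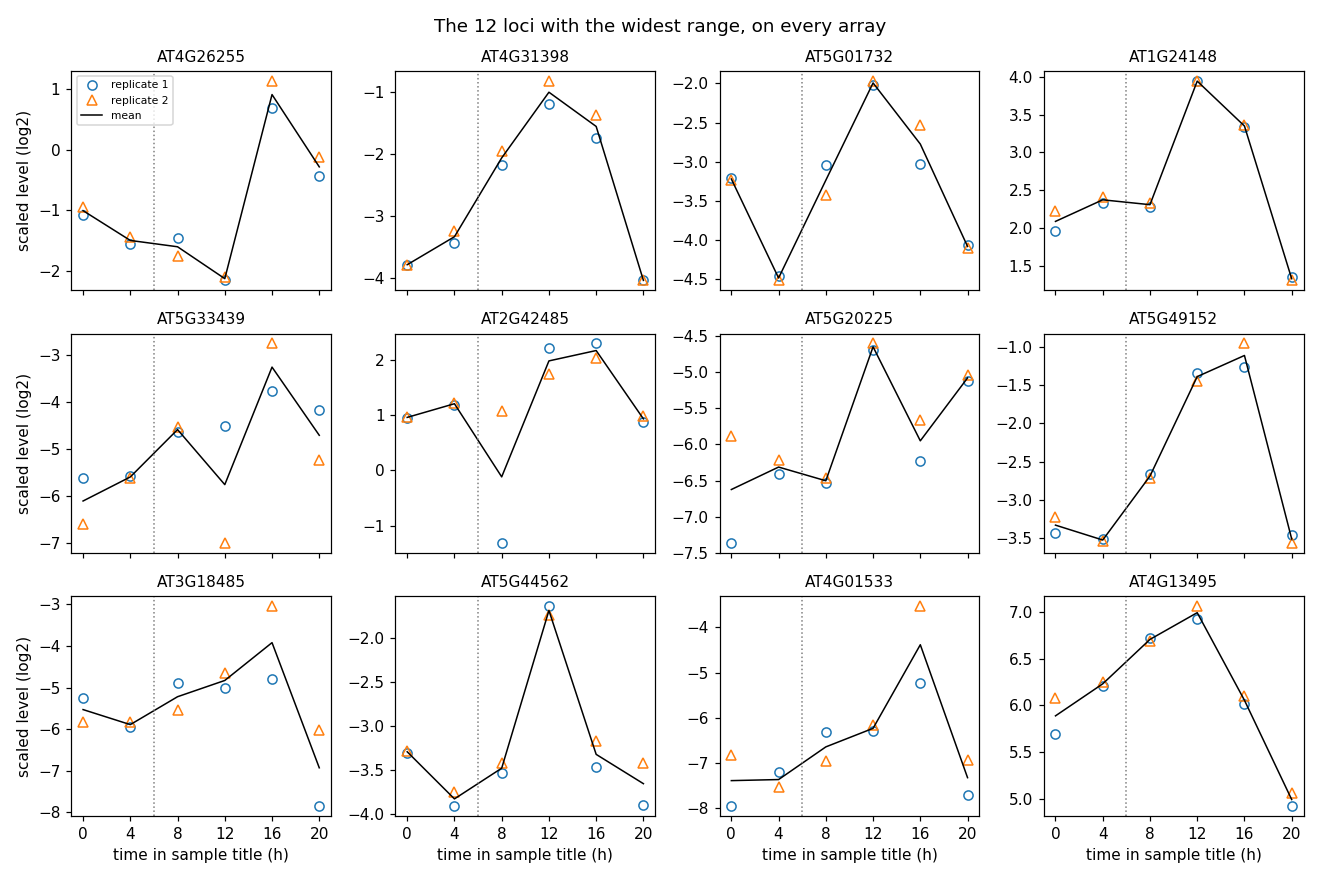
Scaled level (log2, y axis) against the time in the sample titles (h, x axis) for the 12 loci with the widest range in the deposited series table; circles and triangles are the arrays of replicates 1 and 2, black lines join the means of 2 arrays, and the dotted line separates the slides. AT4G31398 and AT1G24148 are high at 12 and 16 h, AT5G44562 at 12 h, and AT4G26255 jumps between 12 and 16 h.

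The loci highest at 12 h differed in where they were lowest. In the series table the lowest mean of the 42 was that of 16 h for 12 loci, of 20 h for 11, of 0 h for 9, of 4 h for 6 and of 8 h for 4. The second highest mean was that of 16 h for 13, of 8 h for 12, of 4 h for 9, of 20 h for 5 and of 0 h for 3. The 12 loci that went from their highest to their lowest mean within 4 h had ranges of 1.28 to 2.37 in the series table, with a median of 1.69.

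Further members are named from here on as examples of these courses, by the gene they overlap or by the steadiness of their replicates, and were chosen after their values were seen. AT4G39404, which lies beside PLS (a gene of a short peptide of root growth), had levels of 0.78 and 0.92 at 12 h against -0.94 and -0.98 at 16 h, a fall of 3.51-fold. AT2G21188 had levels of 4.22 and 4.77 at 12 h and of 2.60 and 2.63 at 16 h, or 3.68-fold apart. Its arrays of 4 h, at 4.22 and 4.11, and of 8 h, at 4.10 and 3.93, were close to the first 12 h array. Without the second 12 h array AT2G21188 did not meet the rule. AT4G20362, which overlaps the gene annotated as RABE1b, was at 0.74 and 0.72 at 12 h and at -1.13 and -0.86 at 16 h. In all 3 the 20 h arrays lay below both 12 h arrays as well.

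AT3G52748 had levels of 1.03 and 1.48 at 12 h and -0.33 and -0.54 at 16 h, a 3.23-fold difference, but its 4 h arrays at 0.95 and 1.03 were close to the 12 h arrays. AT1G67328 was likewise flat from 0 to 12 h, between 0.89 and 1.40, and was low at 16 h on both arrays, at 0.04 and 0.03. For these loci the course was a trough at 16 h more than a peak at 12 h. AT1G70581, beside AOAT2 (an alanine and glyoxylate aminotransferase gene of photorespiration), had 12 h levels of 0.03 and -0.01 inside the spread of its 4 h levels of 0.11 and -0.11, and 16 h levels of -1.02 and -1.49.

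Of the 11 loci lowest at 20 h, 3 show different courses. AT5G03285, which lies between EIN2 (a central gene of ethylene signalling) and IDH-V, had levels of 1.16 and 0.97 at 0 h, 1.26 and 1.26 at 4 h, 1.11 and 1.11 at 8 h, 2.54 and 2.40 at 12 h, 2.01 and 2.33 at 16 h, and 0.58 and 0.71 at 20 h. The 4 arrays of 12 and 16 h lay above the other 8, and the level at 12 h was 3.56-fold that at 20 h. AT3G57157, beside NAP57 (a gene of rRNA pseudouridylation), was at 0.30 and 0.32 at 12 h, -0.91 and -1.06 at 16 h and -2.04 and -1.83 at 20 h, so that it fell in both steps. The 12 and 20 h levels were 4.74-fold apart. AT2G23672, which overlaps YCF37 (a gene of photosystem I assembly), had levels of 2.47 and 2.43 at 4 h and of 2.40 and 2.48 at 12 h, and these 4 arrays overlapped.

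Lowest at 0 h were 9 loci, led by AT3G13061, which overlaps ECT5 (a gene of a protein that reads N6-methyladenosine in RNA). Its levels were 1.26 and 1.12 at 0 h, 2.96 and 3.09 at 4 h, 2.80 and 2.67 at 8 h, 3.35 and 3.53 at 12 h, 1.93 and 1.83 at 16 h, and 2.15 and 2.27 at 20 h. The RNA was already high at 4 h, and the difference between 12 and 0 h was 2.26 ± 0.19, or 4.77-fold. AT2G07042, beside CAS1 (the cycloartenol synthase gene of sterol synthesis), rose more slowly, from -0.27 and -0.17 at 0 h to 0.45 and 0.36 at 8 h and 1.16 and 1.39 at 12 h. AT1G79529, which overlaps GAPCP-1 (a plastid glyceraldehyde-3-phosphate dehydrogenase gene), was at -0.35 and -0.40 at 12 h with all other arrays between -1.83 and -0.87.

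The 31 loci highest at 16 h had their lowest mean at 0, 4 or 8 h in 8 cases each, at 12 h in 5 and at 20 h in 2. The second highest mean was that of 12 h for 14, of 20 h for 10, of 0 h for 3 and of 4 and 8 h for 2 each. Most of them thus had a neighbouring time point as their next highest. AT1G30282 had levels of -1.86 and -1.88 at 0 h, -2.49 and -2.45 at 4 h, -2.79 and -2.80 at 8 h, -3.14 and -3.36 at 12 h, -1.37 and -1.26 at 16 h, and -1.94 and -1.95 at 20 h. It declined from 0 to 12 h with close replicates and stood 3.83-fold higher at 16 h than at 12 h.

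AT5G01215 was at -1.64 and -1.72 at 8 h, -1.60 and -0.82 at 12 h, 0.45 and 0.36 at 16 h and 0.18 and 0.41 at 20 h. The 16 and 20 h arrays overlapped, and 16 h stood 4.23-fold above 8 h. AT3G21755, which overlaps the glycosyltransferase genes UGT71B1 and HYR1, was at -1.05 and -1.25 at 8 h, 0.80 and 0.69 at 16 h and 0.62 and 0.25 at 20 h, with 16 h 3.72-fold above 8 h. AT4G12917 was lowest at 8 h too, at 1.00 and 0.98, and was at 1.91 and 2.45 at 12 h and 2.78 and 2.49 at 16 h. AT3G59765, between OASC (an enzyme gene of cysteine synthesis) and SAC9, was at 1.06 and 1.04 at 16 h with all other arrays between -0.61 and 0.38.

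Some loci had replicates far apart at 12 or 16 h. AT3G05905 was at -2.89 on the first 16 h array and -0.29 on the second, AT5G24206 at -3.21 and -1.39, and AT3G60952 at -4.50 and -2.35. In all 3 the first 16 h array lay within the range of the arrays of other time points. AT5G40316 was at -5.12 and -1.63 on its 12 h arrays, and AT4G25885 at -1.92 and -0.10, so that these 12 h means join arrays more than 1 log2 unit apart. AT5G40316 met the rule with any 1 array left out, while AT4G25885 did not. With the rule applied without the second 16 h array, 64 of the 73 loci were kept, and 8 further loci entered. The 9 that left were AT2G01008, AT2G36792, AT3G05905, AT3G60952, AT4G16892, AT4G25885, AT5G10278, AT5G24206 and AT5G28262. Without the second 12 h array another 9 left, among them AT2G33815 and AT2G18917.

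**Figure D2:**
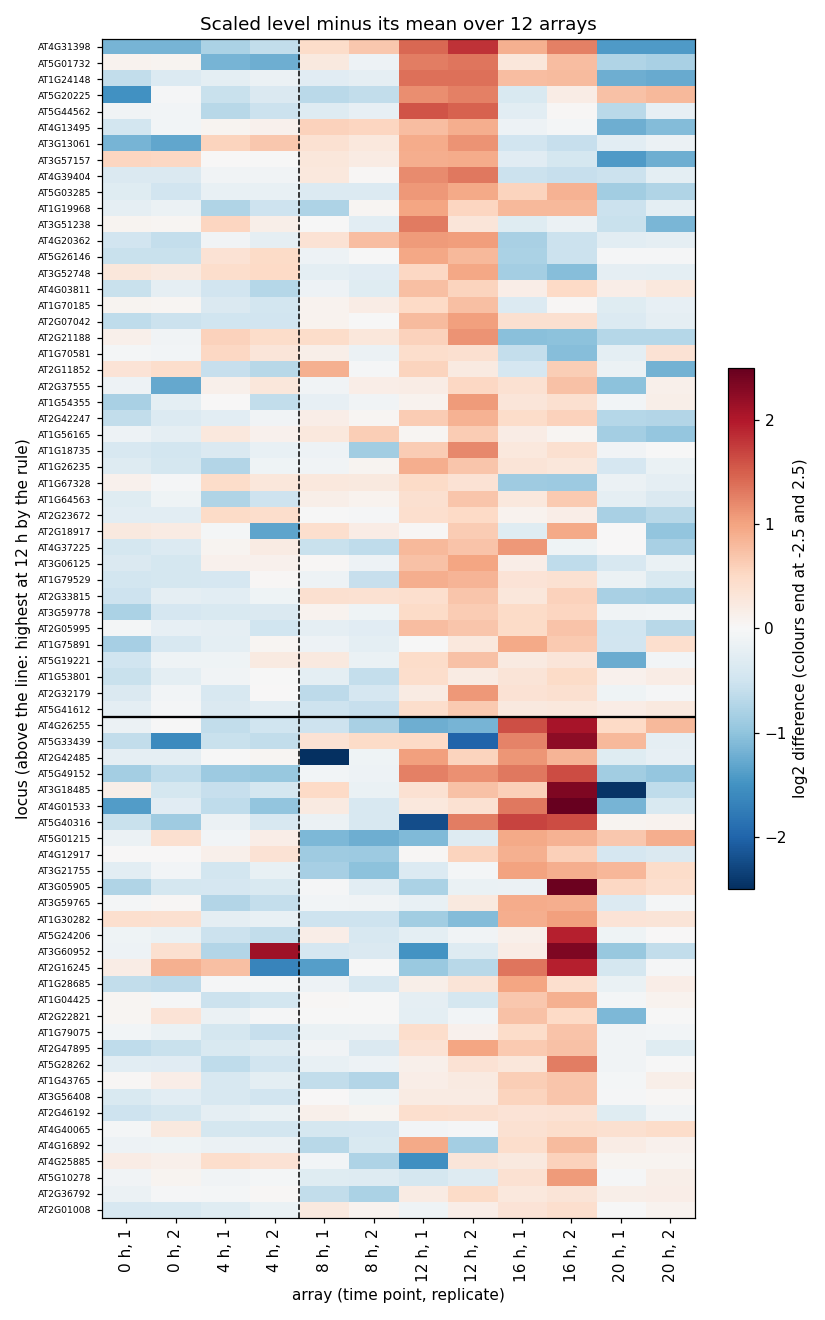
Scaled level minus the locus mean over the 12 arrays (log2, colour) for the 73 loci (rows) on each array (columns, by time point and replicate); the solid line separates the 42 loci highest at 12 h from the 31 highest at 16 h, each sorted by range, and the dashed line separates the slides. Red at 12 and 16 h is the rule itself; the columns show that many loci share it between the 2 time points and that some rows stand out on a single array, such as the second 16 h array.

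Counted array by array, both arrays of the rule's time point lay above the other 10 arrays for 41 of the 73 loci, 23 highest at 12 h and 18 at 16 h. Over all 3220 loci and transcripts with values on every array, 16.0% had both arrays of 12 or 16 h above the other 10. Both highest arrays lay above both lowest arrays for 71 of the 73, against 82.7% of all, with AT2G11852 and AT4G25885 as the exceptions. In an F test over the 6 time points (limma, adjusted p under 0.05 by Benjamini-Hochberg), 40 of the 73 passed, against 13.9% of the 3233 loci and transcripts tested. Without 1 of the 0, 4 or 20 h arrays 22 to 26 passed, within slide 2 alone 15, with the percentile over all probes 17 and without the filter on dim probes 19. The choice of the loci used the same time points on the same arrays, so these counts say nothing further about them.

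On the scaled level the step from 12 to 16 h was negative for 38 of the 42 loci highest at 12 h by the rule and positive for 29 of the 31 highest at 16 h. The rule read the series table, in which these signs are fixed, so the 4 and 2 exceptions come with the change of scale. In the same fit 11 loci were lower at 16 h than at 12 h, against 2.97% of all tested, and 7 were higher, against 6.06% of all. All 11 were among those highest at 12 h and all 7 among those highest at 16 h, and since the rule chose the loci by these time points nothing is read from that. The 18 in all were 8 within slide 2 or with array weights, 11 without the filter on dim probes and 32 with normexp. The lower ones by more than 1.5 were AT2G21188 (-1.88), AT4G39404 (-1.81), AT4G20362 (-1.72), AT3G52748 (-1.69), AT5G44562 (-1.63), AT3G13061 (-1.56) and AT5G26146 (-1.55). The higher ones were AT4G26255 (3.03), AT1G30282 (1.94), AT5G01215 (1.62), AT3G21755 (1.15), AT5G10278 (1.11), AT1G04425 (1.11) and AT3G59765 (0.89).

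Both 12 h arrays lay above both 16 h arrays for 28 of the 42 loci highest at 12 h, against 15.2% of all loci and transcripts. Both 16 h arrays lay above both 12 h arrays for 23 of the 31 loci highest at 16 h, against 40.0% of all. The latter share is high for the array at large, and the scaling moves the step of all loci together. The median step over all loci and transcripts tested was 0.38 on the scaled level, -0.69 with the percentile taken over all probes, -0.29 after quantile normalization, -0.04 after normexp background correction with quantile normalization and -0.30 in the series table. Over the 73 loci the median step on the scaled level was -0.07, with -0.51 for those highest at 12 h and 0.89 for those highest at 16 h. Steps are therefore relative to these shifts.

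The second 16 h array also entered the step. Without it 2 of the 73 loci passed as higher, against 1.76% of all tested, and 9 as lower, against 2.23%. For the 61 loci well above background on all arrays, the second 16 h array exceeded the first by a median of 0.08 on the scaled level, within a range of -1.20 to 2.60. For the other 12 loci the median was 0.58 on the scaled level and -0.97 in the series table, so for dim probes the sign of the replicate difference at 16 h changed with the source of the values.

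**Figure D3:**
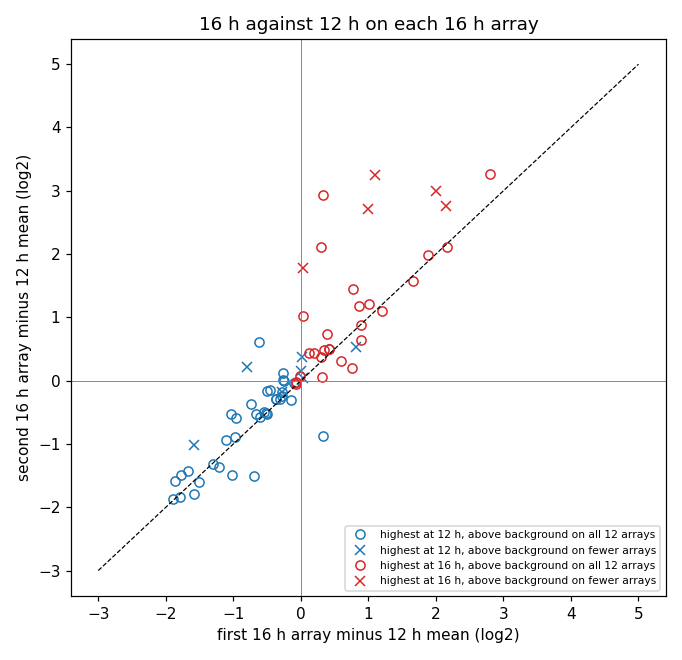
For each of the 73 loci, the first 16 h array minus the 12 h mean (x axis, log2) against the second 16 h array minus the 12 h mean (y axis, log2), on the scaled level; blue is highest at 12 h, red is highest at 16 h, crosses are loci above background on fewer than 12 arrays, and the dashed line marks equal values. On the first 16 h array 38 of the 42 blue points are below 0 and 28 of the 31 red points above 0; on the second 34 and 29 are.

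Which time point came out highest depended on the scaling, and for the 16 h loci mainly on 1 setting. Of the 42 loci highest at 12 h by the rule, 35 were highest at 12 h on the scaled level, 42 with the percentile over all probes, 42 after quantile normalization and 36 after normexp. Of the 31 highest at 16 h by the rule, 28, 6, 31 and 28 were highest at 16 h under the same settings. Quantile normalization gave values close to the series table, with median steps over all loci and transcripts tested of -0.29 and -0.30. The series table chose the loci, so the 42 and 31 under quantile normalization were nearly fixed in advance. They say little beyond the rule, here and in the count over all 4 scalings below. With the percentile over all probes 12 h became the highest time point for 14 of the 31, 20 h for 8, 4 h for 2 and 0 h for 1. Under this setting the median step over all loci and transcripts tested was -0.69 in place of 0.38.

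The same highest time point under all 4 scalings of the scanner values was found for 36 loci, 31 highest at 12 h and 5 at 16 h. The 5 were AT4G26255, AT5G33439, AT4G01533, AT5G40316 and AT5G24206. Of these, AT4G01533 was well above background on 3 arrays and AT5G33439 on 9. The other probes of AT5G40316 went the other way, with a difference of -0.66 and their highest mean at 4 h. AT5G24206 did not meet the rule without the second 16 h array. At least 1 of the scalings placed 18 of the 73 loci outside 12 and 16 h.

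**Figure D4:**
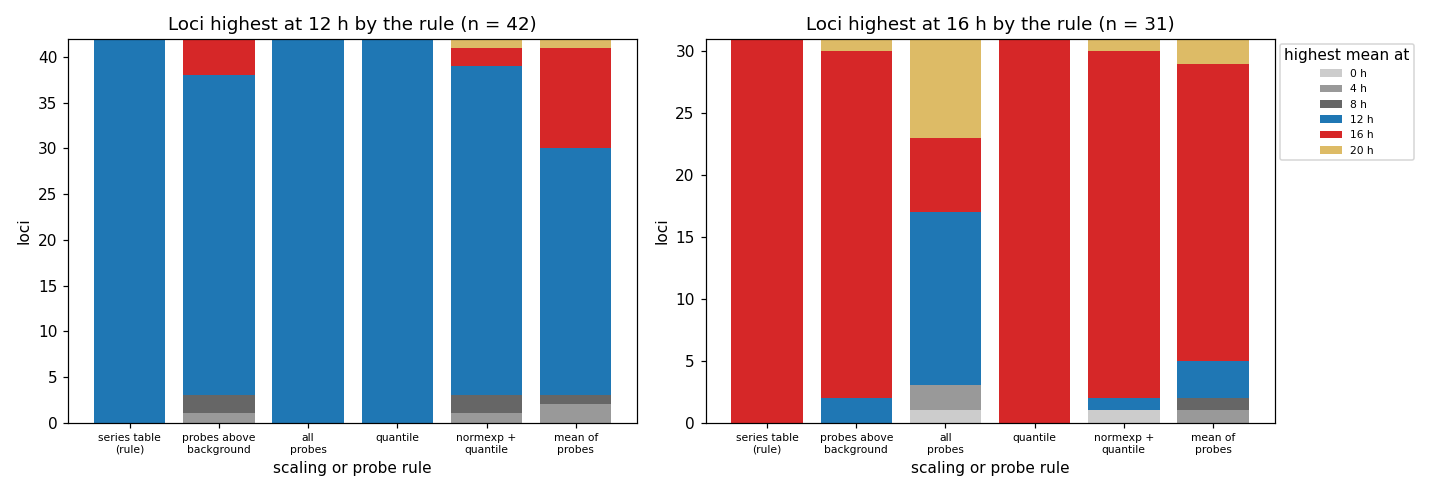
Number of loci (y axis) by the time point of their highest mean (colour) under each source, scaling or probe rule (x axis), for the 42 loci highest at 12 h by the rule (left) and the 31 highest at 16 h (right). Under the percentile over all probes 6 of the 31 stay at 16 h, while all 42 of the 12 h loci stay at 12 h.

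The array carries other probes for 72 of the 73 loci, which the rule did not read. They measure the same samples on the same arrays and are not further replicates. The mean of the other probes was higher at the rule's highest than at its lowest time point for 67 of the 72. The 5 exceptions were AT5G20225, AT5G40316, AT2G11852, AT1G54355 and AT1G53801. Over all loci and transcripts with other probes, where the brightest probe set the time points, the share was 57.3%. The highest time point of the other probes was the rule's own for 46 of the 72, against 29.4% of all, and was 12 or 16 h for 60. The 72 had to have a range of at least 1 on the brightest probe, and the loci and transcripts behind 57.3% and 29.4% did not. The shares are therefore not on equal terms, and nothing is read from the gap.

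The difference between those time points had a median of 1.00 on the other probes and 1.34 on the brightest probe of the same loci. An F test over time on the other probes alone passed for 25 of the 72 loci, against 6.21% of the 3188 loci and transcripts tested, and the loci had been chosen on another probe for the same RNA. Without the first 16 h array 50 passed, and without the second 0 or 8 h array or either 20 h array 16 passed. Within slide 2 alone 11 passed, and with normexp 49. On the other probes the difference was 2.77 for AT5G01732, 2.66 for AT1G24148 and 2.54 for AT4G31398, against 2.49, 2.61 and 3.04 on the brightest. AT5G44562 had a wider difference on the other probes, 3.01 against 1.63. AT4G39404 had 0.33 on the other probes against 1.81 on the brightest, and AT4G01533 had 0.51.

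By position in the gene table, 46 of the 71 loci found there overlap another gene and 39 of these a protein-coding gene, while 25 overlap none. The table gives no strand, so signal from a locus and from the gene it overlaps cannot be told apart. Where the overlapping gene has a role in light or time of day, AT2G18917 overlaps LKP2 (an F-box protein gene of the clock and blue-light response), and was at -3.58 and -2.96 at 12 h and -3.65 and -4.91 at 4 h. Those 4 arrays did not overlap, but the difference of 1.01 ± 0.56 was less than 2 SE. The 12 h mean of AT2G18917, -3.27, was no peak. Its means were -3.37 at 0 h, -3.30 at 8 h and -3.28 at 16 h. On its other probes the highest mean was at 16 h. AT2G33815 overlaps SPL3 (a flowering gene repressed by miR156). It was at -1.96 and -1.67 at 12 h and -3.18 and -3.21 at 20 h, a 2.60-fold difference. Its 8 and 16 h arrays, between -2.08 and -1.80, lay beside the 12 h arrays. On its other probes the difference was 0.28 on the log2 scale, with a single probe at -0.63.

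Further loci highest at 12 h are given by the gene they overlap. AT1G18735, which overlaps PnsB4 (a subunit gene of the chloroplast NADH dehydrogenase-like complex), was at 0.44 and 1.00 at 12 h and -0.32 and -1.07 at 8 h. AT2G32179, which overlaps PTAC18 (a gene of the plastid transcription complex), was at -1.66 and -0.77 at 12 h and -2.51 and -2.28 at 8 h. AT5G19221, which overlaps APL1 (a subunit gene of the enzyme that commits glucose to starch), was at -1.62 and -1.35 at 12 h and -3.32 and -2.14 at 20 h. The 16 h arrays lay between the 12 h arrays for AT2G32179 and below both of them for the other 2. These levels are those of the brightest probe. On the other probes the difference was 0.24 for AT1G18735, 0.36 for AT2G32179 and 0.41 for AT5G19221, against 1.41, 1.18 and 1.24 on the brightest. The highest mean of the other probes was at 0, 16 and 8 h, in the same order.

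AT3G51238 overlaps F3H (the flavanone 3-hydroxylase gene of flavonoid synthesis) and was at -1.67 and -2.67 at 12 h and -3.29 and -3.11 at 16 h. Its 4 h arrays, at -2.44 and -2.82, overlapped the 12 h arrays, and its 20 h arrays were lowest, at -3.53 and -4.13. On its other probes the difference between 12 and 16 h was 0.55. AT1G56165 overlaps MYB72 (a transcription factor gene of the iron response in roots) and was low at 20 h, at -4.83 and -4.95, with the other 10 arrays between -4.21 and -3.34. AT5G10278 overlaps MYB92 (a transcription factor gene of suberin) and was at -1.36 and -0.68 at 16 h and -2.19 and -2.07 at 12 h. AT5G41612, over CHX18 (a cation and proton exchanger gene), was at 0.76 and 0.97 at 12 h and -0.20 and -0.25 at 8 h.

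Loci that overlap small RNA genes were few. AT2G46192 overlaps 5 snoRNA genes, which guide RNA modification, and was at 1.95 and 2.03 at 0 h, 2.90 and 2.87 at 12 h and 2.81 and 2.83 at 16 h, so on the scaled level its 12 h arrays were above its 16 h arrays. AT1G26235 overlaps 1 snoRNA gene and was at -2.14 and -2.35 at 12 h and -2.74 and -2.78 at 16 h, with 12 h 2.36-fold above 4 h. AT2G01008 overlaps MIR5642b and is described with the loci near the threshold.

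AT4G13495 overlaps the microRNA genes MIR850, MIR863 and MIR5026, and precursors of the first 2 of these were on the array. Its levels were 5.69 and 6.08 at 0 h, 6.21 and 6.25 at 4 h, 6.72 and 6.69 at 8 h, 6.92 and 7.06 at 12 h, 6.01 and 6.10 at 16 h, and 4.92 and 5.06 at 20 h. The RNA climbed to 12 h and fell in both later steps, with both 12 h arrays above the other 10. The 12 h level exceeded the 20 h level by 2.00 ± 0.20, or 4.00-fold, and the mean of its other 5 probes by 1.98.

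The MIR850 precursor had levels of 1.35 and 1.42 at 0 h, 1.63 and 1.68 at 4 h, 2.14 and 1.97 at 8 h, 2.63 and 2.64 at 12 h, 1.00 and 1.07 at 16 h, and -0.19 and -0.07 at 20 h. The MIR863 precursor was at -0.93 and -0.99 at 0 h, -0.80 and -0.90 at 4 h, -0.68 and -0.57 at 8 h, -0.15 and -0.24 at 12 h, -1.34 and -1.23 at 16 h, and -2.58 and -2.42 at 20 h. Like AT4G13495, both peaked at 12 h and had their lowest mean at 20 h, the difference being 2.77 ± 0.18 (6.82-fold) and 2.30 ± 0.18 (4.93-fold). The 3 sets of probes may read the same RNA, and they share samples and arrays, so the likeness is a description.

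**Figure D5:**
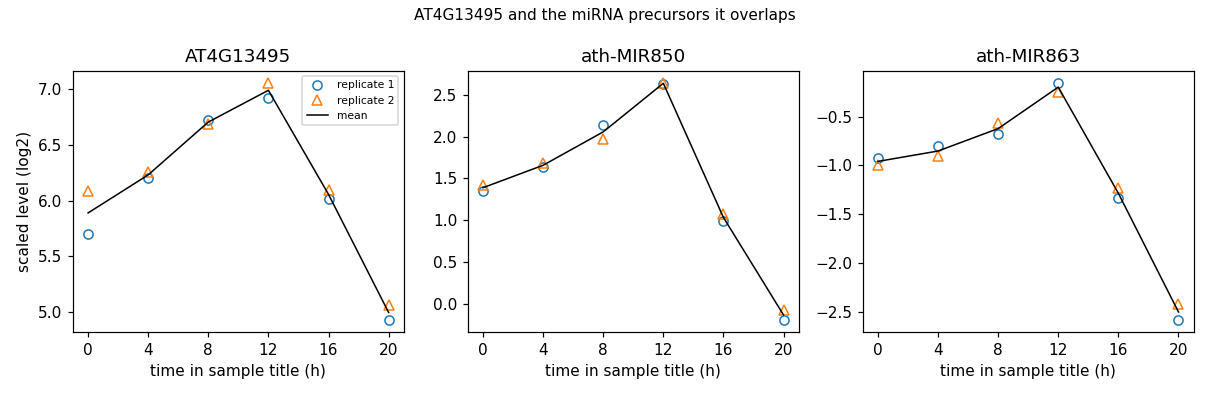
Scaled level (log2, y axes with separate scales) against time in the sample titles (h, x axis) for AT4G13495 and the precursors of MIR850 and MIR863 that it overlaps; circles and triangles are replicates 1 and 2 and lines join the means of 2 arrays. All 3 climb to 12 h and are lowest at 20 h.

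AT5G26146 overlaps MIR156f, a precursor gene of the miR156 family that represses SPL genes. AT5G26146 was at -1.30 and -1.29 at 0 h, -0.37 and -0.27 at 4 h, -0.86 and -0.74 at 8 h, 0.22 and 0.06 at 12 h, -1.53 and -1.29 at 16 h and -0.76 and -0.78 at 20 h. It alternated between higher and lower time points, with 12 h 2.93-fold above 16 h. The MIR156f precursor probe was well above background on 5 arrays only. Its levels at 12 h were -5.70 and -6.24 and at 16 h -7.73 and -7.73.

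Other neighbours on the array gave mixed courses. AT2G21187, the long non-coding locus next to AT2G21188, had its highest mean at 12 h and its lowest at 16 h too, with levels of 2.48 and 2.61 at 12 h and 1.18 and 1.17 at 16 h. The difference was 1.37 ± 0.17 for AT2G21187 and 1.88 ± 0.23 for AT2G21188. AT2G21187 was as high at 8 h, at 2.53 and 2.49, and is not among the 73. At 8 h AT2G21188, at 4.10 and 3.93, was close to its first 12 h array too, at 4.22. AT3G52742, which AT3G52748 overlaps, was lowest at 12 h, with a mean of -5.05. AT5G24205 beside AT5G24206 had a 16 h mean of -2.08 and a 4 h mean of -3.06.

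Clock genes gave a reference by the hours in the sample titles. How these hours relate to the time of day was not tested. PRR9 and PRR7 were highest at 12 h and PRR5, PRR3 and TOC1 at 16 h, while CCA1 and LHY were highest at 8 h and CHE at 20 h. The last 3 were near ties. The means at 0, 4 and 8 h were 0.84, 6.48 and 6.55 for CCA1 and 4.09, 8.01 and 8.21 for LHY. Those of CHE at 12, 16 and 20 h were 4.21, 4.25 and 4.29. The means of TOC1 were 3.07 at 12 h and 5.77 at 16 h, and those of PRR9 4.05 at 12 h and 0.03 at 16 h. Of 10 light signalling genes 8 passed the F test and 5 were highest at 12 or 16 h. Of 6 RNA silencing genes on the array 1 (NRPD1B) passed and 2 were highest there. Over all loci and transcripts tested 13.9% passed. In the classes of the next paragraph 33.8% to 48.8% of the varying loci and transcripts were highest at 12 or 16 h, so nothing is read from the 5 and the 2. The range of the scaled level over the 8 clock genes ran from 0.95 for CHE to 8.10 for LHY. It was 3.47 for TOC1, 5.25 for PRR5 and 6.90 for PRR9. Among the 73 loci the difference between the rule's highest and lowest time points was at most 3.04.

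Placed among all loci with a range of at least 1, the 73 were 44.2% of 165 varying non-coding loci, while 53 were highest at 20 or 0 h and 39 at 4 or 8 h. The share highest at 12 or 16 h was 44.6% among 56 varying loci with codes ending in 0, 48.8% among 84 microRNA precursors and 33.8% among 2013 transcripts with a TU code. The microRNA precursors were highest at 12 h in 34 cases and at 16 h in 7, and the TU transcripts at 12 h in 282 and at 16 h in 398. No test of these shares was made, since the time points of the rule defined them.

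Near the threshold the rule took in AT2G01008 (range 1.0028 in the series table) and AT2G36792 (1.0038), both highest at 16 h. The nearest loci left out were AT5G22788 (0.980, highest at 12 h) and AT3G13277 (0.965, highest at 16 h). Another 51 loci were highest at 12 or 16 h and above background there but had a range under 1, and 3 had a sufficient range but were not above background on both arrays.

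AT2G01008 had levels of 1.83 and 1.87 at 0 h, 1.94 and 2.09 at 4 h, 2.49 and 2.33 at 8 h, 2.14 and 2.41 at 12 h, 2.58 and 2.65 at 16 h, and 2.24 and 2.33 at 20 h. The 16 h arrays were highest by a small margin over the 8 h arrays, and 16 h exceeded 0 h by 0.76 ± 0.19. AT2G36792, which overlaps UGT73C6 (a flavonol glycosyltransferase gene), had levels of -0.06 and 0.05 at 0 h, 0.02 and 0.11 at 4 h, -0.53 and -0.73 at 8 h, 0.28 and 0.55 at 12 h, 0.34 and 0.39 at 16 h, and 0.22 and 0.24 at 20 h. Its course was a trough at 8 h, with the 12 and 16 h arrays overlapping and a difference of 1.00 ± 0.19 between 16 and 8 h.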

How the data were processed

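Leaf RNA was measured on 12 one-colour arrays, grouped by the sample titles into 6 time points of 2 replicates. Per the file headers, the authors extracted spot values with Agilent Feature Extraction 10.5.1.1. The linear intensity they deposited was corrected for background by that program and comes with a mark for spots well above background. A series table, also deposited by the authors, gives log2 values per probe; the sources used here do not give its normalization. Its columns share a common centre, and the series table chose the loci while the scanner values gave the levels.

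Scaled levels are log2 processed signals from which the 75th percentile of the array was subtracted, taken over 2876 probes that every one of the 12 arrays marked as well above background. Control spots (536) were left out. The probe with the highest mean in the series table stands for a locus. Tests covered the loci and transcripts whose probe was marked above background on both arrays at 1 or more time points. A locus at background on both arrays of the dim time point is given as "at least N-fold", the bright mean against a dim mean in which each array counts with its own signal or with the lowest signal of any probe well above background, if that is higher. The limma package (3.58.1, R 4.3.3) fitted 1 mean per time point over all 12 arrays, with Benjamini-Hochberg adjusted p-values at a threshold of 0.05. The number of arrays limits the precision. The fit was tested on simulated data.

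The loci and the gene lists were chosen with earlier results of these data known. Full values are given for the 12 loci of widest range in the series table, each locus with a symbol and the 2 just inside the threshold, with the 2 just outside by their range. Neighbours were chosen by position. Normexp was run on the median spot signal, since the files hold no mean spot signal, and was added after seeing the data. No sequences, promoters or motifs were analysed here. No coordinates are given, since the headers name an older genome build than the gene table. The alternatives tried were other scalings, probe rules, filters, array weights, slide 2 alone and each array left out.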

Additional observations from a re-analysis of the deposited data

How the results depend on the processing

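The fits called 448 loci and transcripts over time, 292 for 16 h minus 12 h and 198 on the other probes, of which 40, 18 and 25 were among the 73 loci. Without the filter on dim probes these were 182, 119 and 111, with 19 and 11 of the 73 in the first 2. With array weights they were 710 and 42 for the first 2, with 8 of the 73 in the step. Within slide 2 they were 126, 51 and 64, with 15, 8 and 11 of the 73. Over all probes the percentile gave 321 on the other probes and 17 of the 73 over time, and normexp gave 431 on the other probes, 32 of the 73 in the step and 49 on the other probes. Leaving out each array in turn gave 219 to 1246, 129 to 1076 and 87 to 1402 calls, with 22 to 54, 11 to 25 and 16 to 50 of the 73, and the highest numbers of calls over all loci and transcripts came without the first 16 h array. The rule kept 73 loci, 33 with a range of at least 1.5, 84 on scaled scanner values (66 of the 73), 53 with the mean of all probes (45 of the 73) and 70 to 82 when an array was left out. Of the 31 loci highest at 16 h, 6 were highest at 16 h with the percentile over all probes. The difference between the rule's highest and lowest time points turned to -0.22 for AT5G20225 with the mean of all probes. For AT2G01008 it turned to -0.023 with the percentile over all probes. With normexp it was 0.31 for AT5G33439, 0.29 for AT5G20225, 0.17 for AT3G18485 and 0.15 for AT4G01533. The cause of these changes was not tested. Whether replicate numbers pair the samples cannot be settled from these values: deviations correlated above 0.1 in 5 of 15 pairs of time points (-0.108 to 0.198). With the replicate number as a block the calls were 414, 309 and 168, with 33, 18 and 22 of the 73. The planned normexp on the mean spot signal was not run, and the median was used. Signal over background limits 12 of the 73 loci.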
